A study of Homo sapiens with 6 samples.

Results

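The genes described here are the numbered zinc finger genes of human chromosome 19, taken as every row of the deposited expression table with chromosome 19 and a symbol made of ZNF, a number and at most 1 closing letter. There were 263 of them among 61806 rows. The table held a further 294 numbered ZNF genes on other chromosomes and 2768 other genes on chromosome 19. RNA-seq had been performed on HCT116, a human colorectal carcinoma cell line, in 2 groups of 3 libraries. The si-NC group, which the labels call wildtype, received a control short interfering RNA, and the si-STRIP2 group, which they call a STRIP2 knockdown, received one against STRIP2, which encodes a scaffold protein of STRIPAK, an assembly of a phosphatase with kinases. Both groups were the same line in the same medium. The labels name neither the sequence or number of the interfering RNAs nor the time after transfection, and they leave unsaid whether replicates were grown as separate cultures, so p-values measure only the spread between these libraries, which may be technical.

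Most of these genes encode KRAB zinc finger proteins, the largest family of transcription factors in mammals. Each carries an array of C2H2 zinc fingers that reads a DNA sequence and a KRAB domain that binds the co-repressor TRIM28, which in turn brings the histone methyltransferase SETDB1, heterochromatin protein HP1 and histone deacetylases to the site. The genes arose by tandem duplication, lie in dense clusters on both arms of chromosome 19, and are known above all for silencing transposable elements, many of them of the same evolutionary age as the protein that binds them.

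Library totals lay between 17184963 and 21721218 counts, with groups that overlapped (exact permutation test, 2-sided, p = 0.9, where 3 against 3 allows no p below 0.1). The targeted gene was checked first. STRIP2 (ENSG00000128578, chromosome 7, 129434432 to 129488399) stood at 3.19, 3.77 and 3.81 FPKM (fragments scaled by exon length and library total) in si-NC and at 2.71, 2.53 and 2.58 FPKM in si-STRIP2. The groups did not overlap, 72.7% of the si-NC mean remained, and the log2 fold change was -0.46 ± 0.0826 (SE; edgeR quasi-likelihood test, Benjamini-Hochberg adjusted p = 1.62e-05). The epithelial markers EPCAM, CDH1, KRT8, KRT18 and KRT19 were high in every library, CDX2 lay between 2.2 and 3.51 FPKM, and VIL1 was at most 0.03 FPKM. Several of these epithelial genes changed: CDH1 fell 1.52-fold (log2 -0.60, edgeR adjusted p = 1.57e-14), KRT18 and EPCAM fell by 0.18 and 0.11 on the log2 scale, and KRT19 and CDX2 rose by 0.22 and 0.38, while KRT8 was not called. The part of these changes in the members' results was not tested. Of the 6 markers of other cell types, DCN and COL1A2 were at 0 FPKM, PTPRC and PECAM1 reached at most 0.02 FPKM and ALB at most 0.42 FPKM, while COL1A1 lay between 1.89 and 2.55 FPKM. A level in a bulk library does not tell fewer expressing cells from less RNA per cell.

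Expression of the zinc finger genes was low, and many genes had no counts. Of the 263, 166 had enough counts to be tested (at least about 0.575 CPM, counts scaled to the library total, in 3 libraries) and 97 did not. Of those 97, 58 had no count in any library, which allows up to 3 counts in each, and none passed 51 counts over the 6 libraries. The tested members had a median of 1.80 FPKM, against 3.68 FPKM over all tested genes. Only 4 exceeded 10 FPKM and 40 lay under 1 FPKM. Of the tested members, 6 were below the filter level in at least 1 library.

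With STRIP2 targeted, the family as a whole moved little and in both directions. At an adjusted p under 0.05, 75 of the 166 tested members changed (45.2%), beside 54.8% of all 15687 tested genes. Of these 75, 32 rose (19.3%, beside 27.8% of all tested genes) and 43 fell (25.9%, beside 27.0%). The other 91 did not pass the test. The median log2 fold change was -0.03 over the tested members, 0.01 over all tested genes, -0.01 over the 224 tested ZNF genes of other chromosomes and 0.11 over the 888 other tested genes of chromosome 19. On other chromosomes, 59 numbered ZNF genes rose and 65 fell. Of the other chromosome 19 genes, 309 rose and 151 fell. With the filter on low counts, the members' shares of calls lay below the background in both directions, by little for the falls. The order turned without that filter, where 71 of 205 members (34.6%) and 25.5% of 32799 genes were called by edgeR.

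The changes that passed were small. Among the called members the median size was 0.36 on the log2 scale, against 0.38 over all called genes, and 17 of the 75 changed by less than 1.2-fold. At least a 1.5-fold change was found in 9 members, 5 higher and 4 lower (5.42% of those tested, beside 14.5% of all tested genes), and 1 member passed 2-fold. In 91 of the 166 tested members si-NC and si-STRIP2 libraries were fully separate in FPKM (54.8%, beside 58.6% of all tested genes). Calls were more frequent where levels were higher. With the tested members divided by mean FPKM into 3 parts, 10 of 55 were called in the lowest and 28 of 55 in the middle. In the highest part 37 of 56 were called, of which 12 rose and 25 fell. All tested genes were not divided in this way, so no background share stands beside these counts. The part of depth in them was not tested. DESeq2 gave 21 higher calls in place of 32, and a test against a 1.2-fold change left 24 calls in all.

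**Figure D1:**
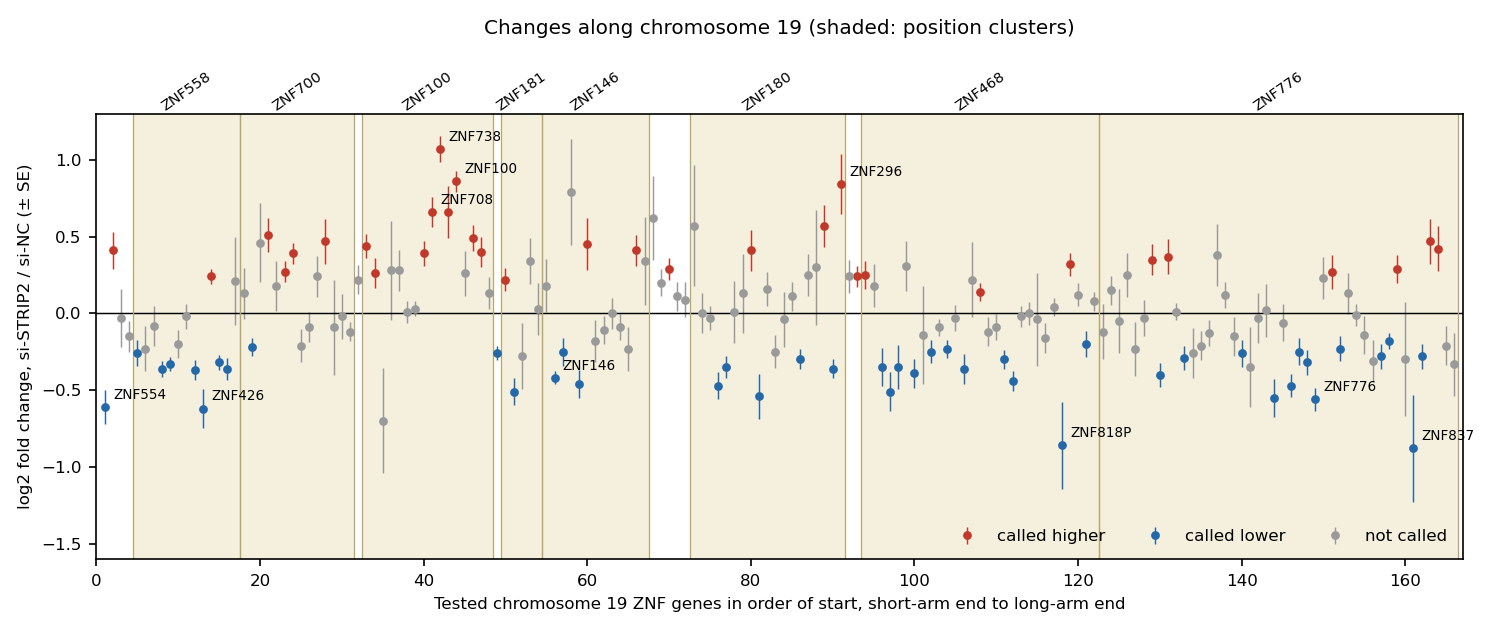
Log2 fold change (si-STRIP2 over si-NC, bars 1 SE) of the 166 tested chromosome 19 ZNF genes in order of their start, with the 8 position clusters shaded and named after 1 gene each. Red points were called higher, blue points lower and grey points were not called; 15 of the 16 points of the ZNF100 cluster lie above 0, and ZNF738 at 1.07 is the highest of all.

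The direction of change varied along the chromosome. Members were ordered by start and a new cluster was begun after any gap of more than 1 Mb, which gave 8 clusters with at least 5 tested members, each named here after its called member with the smallest adjusted p. The remaining 17 members lay in none of these, and of the 13 tested among them 3 rose (23.1%) and 2 fell (15.4%). On the short arm 15 of 48 tested members rose (31.2%, beside 27.8% of all tested genes) and 9 fell (18.8%, beside 27.0%), with a median log2 fold change of 0.13. On the long arm 17 of 118 rose (14.4%) and 34 fell (28.8%), with a median of -0.05. The short-arm rises and the long-arm falls were thus near the background. Differences between clusters or arms were not tested, since members of a cluster share their sequence and their neighbourhood and are not replicates.

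The ZNF100 cluster (GRCh38, chromosome 19, 19668796 to 24129968) was the only one of the 8 in which no member fell. It held 42 genes, 22 of them without a count in any library. Of the 16 that were tested 9 rose (56.2%, beside 27.8% of all tested genes) and none fell (beside 27.0%). The median log2 fold change was 0.34. Neighbouring tested members had the same sign in 13 of 15 pairs, which follows from the single negative value and adds nothing to it. No other protein-coding gene inside this span was expressed enough to be tested. A gain was also seen in the sum: the 42 genes together stood at 30.4, 31.1 and 29.8 FPKM in si-NC and at 38.9, 39.7 and 39.5 FPKM in si-STRIP2. Leaving out any 1 library gave 8 or 9 higher calls and 0 lower ones.

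The 2 largest rises among called members lay in the middle of this cluster. ZNF738 (ENSG00000172687, 21358930 to 21388582) stood at 1.04, 0.97 and 0.93 FPKM in si-NC and at 2.04, 2.08 and 2.09 FPKM in si-STRIP2. Every si-STRIP2 library was near 2.1 times the si-NC mean, with a log2 fold change of 1.07 ± 0.0877 (SE; edgeR adjusted p = 2.07e-12). ZNF100 (ENSG00000197020, 21722771 to 21767579) was at 3.01, 3.75 and 3.45 FPKM in si-NC and rose to 6.13, 6.14 and 6.17 FPKM. The si-STRIP2 libraries were nearly identical and well above all controls, a 1.81-fold difference (log2 0.86 ± 0.0679, SE; adjusted p = 8.64e-13).

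Other members of the cluster moved the same way by less. ZNF708 was at 2.10, 1.82 and 1.96 FPKM in si-NC and at 2.98, 3.21 and 3.17 FPKM in si-STRIP2, 1.58-fold higher (edgeR adjusted p = 8.14e-07). ZNF493, a weakly expressed gene with 419 counts over all libraries, rose from 0.21, 0.30 and 0.31 FPKM to 0.38, 0.41 and 0.47 FPKM (adjusted p = 0.00141). Neither gene's groups overlapped. ZNF91, a repressor known for silencing SVA retrotransposons, was at 1.09, 1.22 and 1.14 FPKM and then at 1.63, 1.61 and 1.59 FPKM, 1.40-fold higher (adjusted p = 1.23e-05). ZNF93, its relative known for silencing LINE elements, had no count in any library. ZNF675, reported as a partner of the signalling adaptor TRAF6, rose from 1.31 to 1.73 FPKM on average (log2 0.40 ± 0.1, SE; adjusted p = 0.00117).

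The other called members of the cluster, chosen after their values were seen, were ZNF101 (log2 0.44, adjusted p = 1.45e-05), ZNF431 (0.39, 8.9e-05) and ZNF14 (0.26, 0.0243). Of the 7 that were not called, ZNF430 and ZNF714 had log2 fold changes of 0.01 and 0.03 and overlapping groups. ZNF85 was at 1.15 ± 0.106 FPKM (SD, n = 3) in si-NC and 1.40 ± 0.191 FPKM (SD, n = 3) in si-STRIP2, with an edgeR adjusted p of 0.0729 that became 0.0264 without si-STRIP2 replicate 3 and lay between 0.0264 and 0.482 over all alternatives. The single negative value was that of the pseudogene ZNF56P, at -0.70 ± 0.341 (SE; adjusted p = 0.081), which overlaps ZNF506 on the other strand.

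The promoters of this cluster resemble one another in their letters. RefSeq (GRCh38.p14) gave a promoter for 216 of the 263 members, matched by symbol, of which 185 began within 1000 bases of the table's gene start; ZNF738 had none. In the 250 bases before the start, the letters CCAAT, the box bound by the factor NF-Y, occurred on either strand in all 29 promoters of the ZNF100 cluster and in 22 of 24 of the ZNF700 cluster, against 32.0% of all 35116 RefSeq promoters and 51.4% of the members' promoters. The letters CTTCCGG, a site of ETS factors, occurred in 19 of the 29, against 8.52% of all promoters and 30.6% of the members'. They were also in 27 of 54 promoters of the ZNF776 cluster, where falls outnumbered rises, and in 2 of 4 of the ZNF181 cluster. Read on the gene's strand, the most frequent 12-base word in the cluster, CTGTCACTCAGG, was in 18 of its 29 promoters, in 5 of 24 of the ZNF700 cluster, and in 33 of all 35116. The 150 bases before the start are shown for 4 members that rose, from the plus or minus strand as given, to let their shared blocks be compared; capitals mark CCAAT and CTTCCGG on either strand.
ZNF100 (chr19:21767580-21767729, minus strand): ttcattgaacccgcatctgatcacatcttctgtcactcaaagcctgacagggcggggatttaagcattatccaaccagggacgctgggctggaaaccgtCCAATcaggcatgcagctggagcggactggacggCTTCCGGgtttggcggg
ZNF708 (chr19:21329411-21329560, minus strand): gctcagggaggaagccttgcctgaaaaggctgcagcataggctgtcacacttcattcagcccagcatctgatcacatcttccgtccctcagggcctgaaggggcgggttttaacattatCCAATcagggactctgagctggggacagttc
ZNF91 (chr19:23395472-23395621, minus strand): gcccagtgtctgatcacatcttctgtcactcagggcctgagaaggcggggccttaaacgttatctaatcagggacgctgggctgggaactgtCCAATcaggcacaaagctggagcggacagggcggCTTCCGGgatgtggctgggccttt
ZNF101 (chr19:19668689-19668838, plus strand): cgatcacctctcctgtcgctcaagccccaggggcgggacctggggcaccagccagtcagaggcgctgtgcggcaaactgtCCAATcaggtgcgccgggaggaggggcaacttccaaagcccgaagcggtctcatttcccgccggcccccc
The longest run that all 4 share is TCCAATCAGG (10 bases), and ZNF100 and ZNF91 share TCTGATCACATCTTCTGTCACTCA (24 bases) upstream of it and have CTTCCGG downstream of it. ZNF100 and the falling gene ZNF558, shown further on, share no run longer than 6 bases. These genes belong to different clusters, so direction and cluster cannot be told apart in this pair. A match of letters is a description and not a measured binding site.

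The ZNF700 cluster (chromosome 19, 11483427 to 12640098) held 28 genes, of which 14 were tested. Of these 4 rose (28.6%, near the 27.8% of all tested genes) and 1 fell (7.14%, beside 27.0%). The median log2 fold change was 0.16. ZNF700 (ENSG00000196757) rose from 6.80, 6.58 and 6.29 FPKM to 8.78, 8.48 and 8.59 FPKM, 1.31-fold (edgeR adjusted p = 1.09e-05). ZNF823 was at 2.43, 2.98 and 2.89 FPKM and then at 3.98, 3.91 and 3.92 FPKM, 1.43-fold higher (adjusted p = 0.000209). Both had groups that did not overlap. ZNF627, by its level 1 of the 5 highest members, went the other way, from 10.8, 10.6 and 10.4 FPKM to 9.18, 9.04 and 9.05 FPKM (log2 -0.22 ± 0.0563, SE; adjusted p = 0.00114), and was the only fall. ZNF440 and ZNF443, chosen after their values were seen, were the other rises, at 0.27 and 0.47 on the log2 scale. Of ZNF443's transcript sequence 37.7% (by words of 50 bases) is shared with other genes, so some of its reads may not be assignable to it. Without si-NC replicate 1 or without si-STRIP2 replicate 2 there were 2 falls.

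The promoter of ZNF700 carries the same box. CCAATCAGGGGC was the most frequent 12-base word of this cluster, in 10 of 24 promoters and in 20 of all RefSeq promoters. The stretch shown has TCCAATCAG in common with the 4 promoters above, and not the whole word.
ZNF700 (chr19:11924957-11925106, plus strand): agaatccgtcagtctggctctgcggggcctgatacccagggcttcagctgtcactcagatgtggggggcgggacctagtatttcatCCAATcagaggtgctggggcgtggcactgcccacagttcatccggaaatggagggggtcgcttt

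The ZNF558 cluster, further out on the short arm (7069703 to 9793180), moved the other way. Of its 16 genes 13 were tested, 7 fell (53.8%, beside 27.0% of all tested genes) and 1 rose (7.69%, beside 27.8%). The median log2 fold change was -0.26. ZNF558, a repressor reported to control SPATA18 in human neural progenitors, was at 7.17, 6.60 and 7.17 FPKM in si-NC and at 5.44, 5.52 and 5.38 FPKM in si-STRIP2, 1.29-fold lower (edgeR adjusted p = 3.64e-07). ZNF317 fell from 12.8, 13 and 12.78 FPKM to 10.01, 10.8 and 9.95 FPKM, 1.26-fold (adjusted p = 5.41e-07). In both genes all si-STRIP2 libraries lay below all controls.

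The largest fall of this cluster was in a weaker gene. ZNF426 was at 1.21, 1.43 and 1.17 FPKM and then at 0.68, 0.80 and 1.01 FPKM, 1.53-fold lower (edgeR adjusted p = 0.000108). The exception was ZNF121, reported as a partner of MYC and the second highest member of the family, which rose from 17.6, 17.8 and 20.3 FPKM to 23.4, 21.0 and 21.3 FPKM (log2 0.24 ± 0.0483, SE; adjusted p = 8.47e-05). Its groups did not overlap. Among the 31 other tested protein-coding genes within the span 12 rose and 4 fell; the difference from the members was not tested.

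Promoters of the ZNF558 cluster had other letters. CCAAT was in 4 of 14. TGACGTCA, the full cyclic AMP response element, was in 4 of 14, against 1.65% of all promoters. The most frequent 12-base word, CGGAAGTGACGT, was in 5 of the 14, in none of the promoters of the other 7 clusters, and in 40 of all promoters. The promoter of ZNF558 is shown as the member with the smallest p, with 2 copies of CTTCCGG on the opposite strand in capitals and no CCAAT.
ZNF558 (chr19:8832305-8832454, minus strand): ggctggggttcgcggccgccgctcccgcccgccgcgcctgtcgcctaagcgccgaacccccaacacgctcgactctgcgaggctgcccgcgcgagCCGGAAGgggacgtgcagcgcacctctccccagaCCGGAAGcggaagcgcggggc

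**Figure D2:**
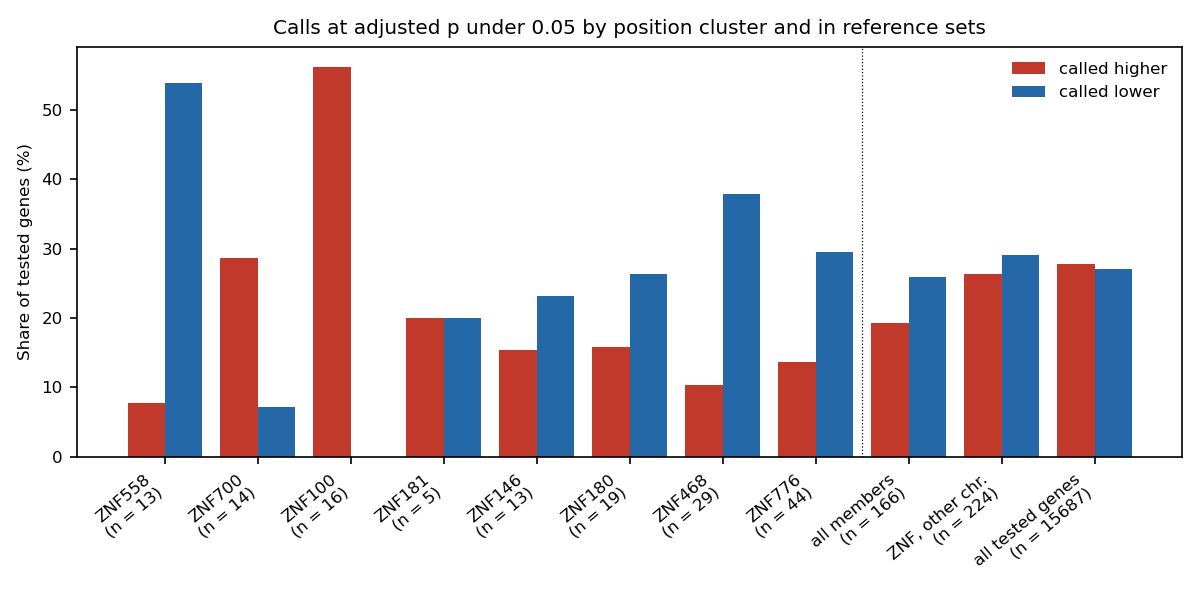
Share of tested genes called higher (red) and lower (blue) in each of the 8 position clusters, from the short-arm end to the long-arm end, and, right of the dotted line, in all members, in numbered ZNF genes of other chromosomes and in all tested genes; the number tested is under each pair of bars. The ZNF100 cluster has 56.2% higher and no lower calls, and the ZNF558 cluster has 53.8% lower and 7.69% higher.

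On the long arm, the ZNF146 cluster (36182276 to 37817300) was set apart by 1 gene. ZNF146 (ENSG00000167635, 36214602 to 36238771), also called OZF, encodes a protein made of zinc fingers alone and is known to be overexpressed in colorectal and pancreatic tumours. It stood at 112, 118 and 108 FPKM in si-NC and at 81.9, 84.8 and 86.0 FPKM in si-STRIP2. All si-STRIP2 libraries were lower than all controls, by 1.34-fold (log2 -0.42 ± 0.0418, SE; edgeR adjusted p = 1.82e-10). This 1 gene made up 19.9% to 20.7% of the summed FPKM of the family in si-NC and 15.9% to 16.9% in si-STRIP2.

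The summed level of the family was lower in si-STRIP2, mostly through this gene. The summed FPKM of all 263 members was 549, 569 and 541 in si-NC and 516, 510 and 510 in si-STRIP2, without overlap. Without ZNF146 the sums were 437, 451 and 433 in si-NC and 435, 425 and 424 in si-STRIP2, and the ranges overlapped. In counts, the members took 0.288% to 0.30% of each si-NC library and 0.272% to 0.277% of each si-STRIP2 library. No test was made on these sums.

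**Figure D3:**
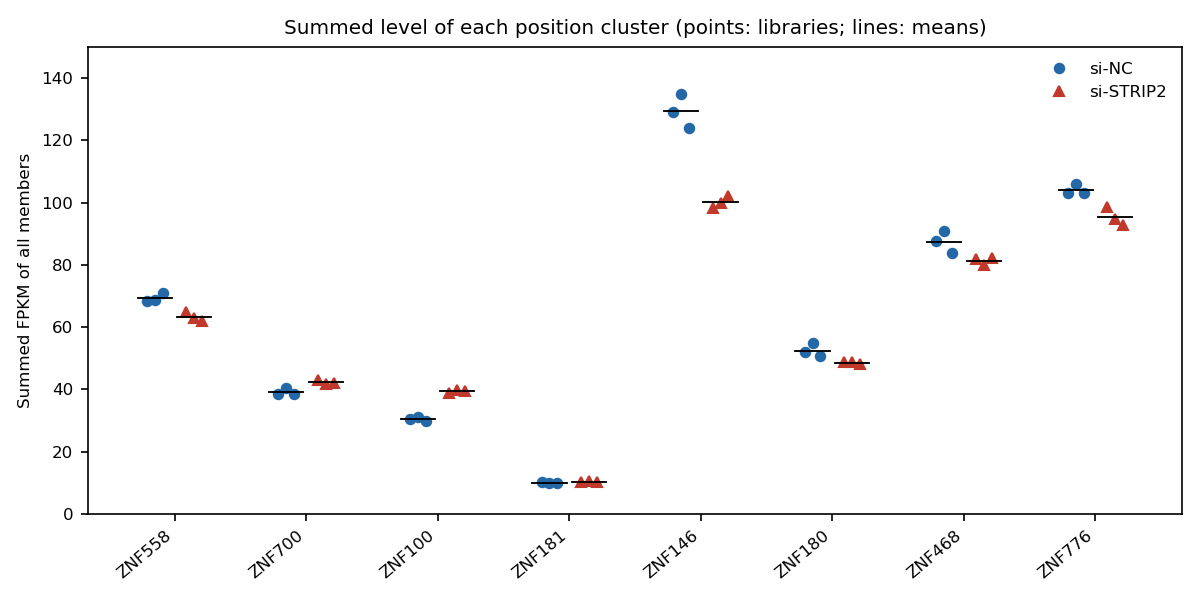
Summed FPKM of all members of each position cluster, 1 point per library (circles si-NC, triangles si-STRIP2) with the group mean as a line. The ZNF146 cluster drops from 124 to 135 FPKM in si-NC to 98.3 to 102 FPKM in si-STRIP2, the ZNF100 cluster rises to 38.9 to 39.7 FPKM, and the ZNF181 cluster has overlapping groups near 10 FPKM.

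Around ZNF146 the members did not move as 1 block. Of the 13 tested of 27, 2 rose (15.4%, beside 27.8% of all tested genes) and 3 fell (23.1%, beside 27.0%). The median log2 fold change was -0.09, and neighbouring members had the same sign in 4 of 12 pairs. Without si-NC replicate 1 or without si-STRIP2 replicate 1 there was 1 rise. ZNF567 and ZNF850, which overlap on opposite strands, were called in opposite directions at -0.46 and 0.45 (edgeR adjusted p = 8.38e-05 and 0.0266; named after their values were seen). The small ZNF181 cluster (34542462 to 34964229) had 1 rise and 1 fall among 5 tested of 6, and 2 rises without si-STRIP2 replicate 1. ZNF181 fell from 3.13, 3.04 and 2.69 FPKM to 1.9, 2.14 and 2.25 FPKM, 1.42-fold (adjusted p = 1.16e-05). ZNF302 next to it rose by 0.22 on the log2 scale (adjusted p = 0.0108).

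CCAAT was in 4 of 25 promoters of the ZNF146 cluster and in 2 of 4 of the ZNF181 cluster. The promoters of both anchor genes are shown beside those of the rising genes. That of ZNF146, whose RefSeq start lies 504 bases from the start in the table, has neither word in this stretch, and that of ZNF181 has CTTCCGG once.
ZNF181 (chr19:34734093-34734242, plus strand): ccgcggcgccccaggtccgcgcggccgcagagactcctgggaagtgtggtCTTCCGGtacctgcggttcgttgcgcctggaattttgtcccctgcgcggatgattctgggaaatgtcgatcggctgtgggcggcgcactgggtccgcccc
ZNF146 (chr19:36214956-36215105, plus strand): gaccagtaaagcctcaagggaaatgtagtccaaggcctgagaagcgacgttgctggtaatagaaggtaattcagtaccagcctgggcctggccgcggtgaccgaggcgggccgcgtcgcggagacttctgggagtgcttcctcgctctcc

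The ZNF180 cluster (43525497 to 45076478) was mixed. Of 24 genes 19 were tested, 3 rose (15.8%, beside 27.8% of all tested genes) and 5 fell (26.3%, near 27.0%). The median log2 fold change was 0.01. ZNF180 went from 7.07, 7.51 and 7.02 FPKM to 5.62, 5.38 and 5.84 FPKM, 1.29-fold lower (edgeR adjusted p = 1.08e-05). ZNF222 fell from 3.15, 3.58 and 2.41 FPKM to 2.16, 2.23 and 1.94 FPKM, 1.45-fold (adjusted p = 0.00264). The groups of both were separate, though the lowest control of ZNF222 came close to the highest si-STRIP2 library.

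Of the 3 rises, ZNF112 lay near the middle of the cluster by coordinate and ZNF296 at its distal end. ZNF112 went from 1.15, 1.26 and 1.24 FPKM to 1.65, 1.68 and 2.11 FPKM, 1.49-fold higher (edgeR adjusted p = 0.000613). ZNF296, which has no KRAB domain and is reported as a partner of KLF4 and a heterochromatin component, rose from 1.10, 1.03 and 1.21 FPKM to 2.18, 1.96 and 1.85 FPKM, 1.79-fold (adjusted p = 0.000425). It was the largest rise outside the ZNF100 cluster. ZNF224, a repressor first described on the aldolase A gene, was at 1.55, 1.51 and 2.23 FPKM and then at 2.12, 1.97 and 1.80 FPKM, with overlapping groups (adjusted p = 0.223). Without si-NC replicate 3 its adjusted p was 0.00371, and over all alternatives it lay between 0.00371 and 0.933. ZNF428, the third highest member and, like ZNF296, without the KRAB annotation, stood at 12.24, 15.18 and 12.14 FPKM and at 12.96, 13.04 and 12.79 FPKM (log2 -0.03 ± 0.081, SE; adjusted p = 0.796), and its sign turned to 0.07 without si-NC replicate 2.

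The ZNF468 cluster (51571283 to 53580269) had more falls than rises. It held 43 genes, and of the 29 tested 11 fell (37.9%, beside 27.0% of all tested genes) and 3 rose (10.3%, beside 27.8%). The median log2 fold change was -0.09. ZNF468 fell from 7.43, 7.77 and 6.74 FPKM to 5.46, 5.46 and 5.25 FPKM, 1.36-fold (edgeR adjusted p = 2.62e-07). Of its transcript sequence 55.8% is shared with other genes. ZNF28, which overlaps ZNF468 on the same strand with 104% of its counts, also fell (log2 -0.30, edgeR adjusted p = 8.41e-05). Some reads of the pair may not be assignable to 1 gene. ZNF613, which had no such overlap, fell from 2.02, 2.37 and 1.74 FPKM to 1.41, 1.41 and 1.48 FPKM, 1.43-fold (adjusted p = 0.000977).

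A transcribed pseudogene of this cluster had 1 of the largest falls. ZNF818P was at 0.30, 0.31 and 0.28 FPKM and then at 0.14, 0.17 and 0.18 FPKM, 1.81-fold lower, on 122 counts in all (edgeR adjusted p = 0.0114). The call was lost in DESeq2 (adjusted p = 0.0918) and without si-STRIP2 replicate 1 (0.052), within a range of 0.00703 to 0.0918. Without si-STRIP2 replicate 1 the cluster had 7 falls and 1 rise, and without si-NC replicate 1 it had 1 rise. ZNF331, a gene of this cluster reported as silenced by methylation in gastrointestinal tumours, had no count in any library.

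The ZNF776 cluster at the long-arm end (55476617 to 58481230) was the largest, with 60 genes, 44 of them tested. Of these 13 fell (29.5%, near the 27.0% of all tested genes) and 6 rose (13.6%, beside 27.8%). The median log2 fold change was -0.14, and 30 of 44 values lay below 0. ZNF776 (ENSG00000152443) was at 5.24, 5.87 and 4.88 FPKM in si-NC and at 3.49, 3.79 and 3.59 FPKM in si-STRIP2, 1.48-fold lower (edgeR adjusted p = 7.56e-08). ZNF416 fell from 3.24, 4.54 and 4.02 FPKM to 3.03, 2.29 and 2.67 FPKM, 1.46-fold (adjusted p = 0.000339). In both genes the groups were separate, by a wide margin for ZNF776 and a narrow one for ZNF416. Without si-STRIP2 replicate 1 the cluster had 2 rises.

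ZNF274, which binds the finger-coding ends of other ZNF genes and brings SETDB1 to them, was at 2.21, 2.14 and 2.26 FPKM and then at 1.78, 1.92 and 1.75 FPKM. Its fall was slight, 1.22-fold, and the groups did not overlap (edgeR adjusted p = 0.00352). ZNF304, which carries the KRAB annotation, had overlapping groups at 3.58 ± 0.215 and 3.28 ± 0.124 FPKM (SD, n = 3 each; edgeR adjusted p = 0.187). ZNF837 had the lowest fold change of the called members, from 0.41, 0.65 and 0.48 FPKM to 0.18, 0.25 and 0.40 FPKM (log2 -0.88 ± 0.35, SE; adjusted p = 0.0335), on 88 counts in all. This call did not hold in 6 of 13 alternatives, among them DESeq2 (adjusted p = 0.163), the test against a 1.2-fold change and 4 that left out a library: si-NC replicate 2 (0.161), si-NC replicate 3 (0.0522), si-STRIP2 replicate 1 (0.172) and si-STRIP2 replicate 2 (0.0905), within a range of 0.0146 to 0.172. The antisense gene ZNF497-AS1 overlaps it with 76.1% of its counts, and whether counting used strand is not given in the sources used here. ZNF667 had no count in any library and ZNF671 had 5 in all; both are reported as methylated in tumours, and neither was tested.

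CCAAT was in 30 of 54 promoters of the ZNF776 cluster, in 5 of 20 of the ZNF180 cluster and in 8 of 32 of the ZNF468 cluster. Each of the 3 had its own most frequent 12-base word: AACTACATTACC in 11 of the 54 and 13 of all promoters, GAATTCTGGGAA in 8 of the 20 and 19 of all promoters, and CAGGCCCCGCCC in 12 of the 32 and 226 of all promoters. The anchor genes are shown for comparison with the promoters of the rising genes above, with the same letters in capitals.
ZNF180 (chr19:44500523-44500672, minus strand): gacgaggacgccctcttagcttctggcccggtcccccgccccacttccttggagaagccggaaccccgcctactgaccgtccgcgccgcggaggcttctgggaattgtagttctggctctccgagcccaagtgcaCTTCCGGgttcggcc
ZNF468 (chr19:52857620-52857769, minus strand): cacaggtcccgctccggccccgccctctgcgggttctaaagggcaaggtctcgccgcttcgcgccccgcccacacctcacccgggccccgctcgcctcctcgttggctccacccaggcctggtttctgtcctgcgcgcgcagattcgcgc
ZNF776 (chr19:57746665-57746814, plus strand): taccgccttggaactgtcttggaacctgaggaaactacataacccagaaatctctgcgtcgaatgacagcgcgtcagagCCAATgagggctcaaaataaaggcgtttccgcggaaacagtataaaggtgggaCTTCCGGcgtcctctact
ZNF776 carries both CCAAT and CTTCCGG here and fell, and ZNF468 carries neither in this stretch.

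Over the family, rises and falls were unequally divided between promoters with and without CCAAT, and so were the clusters. Of the 72 tested members with CCAAT in the promoter 21 rose and 11 fell, and of the 71 without it 8 rose and 27 fell. Over all tested genes with a promoter, 1252 of 3842 with CCAAT rose and 1045 fell, and without it 2032 of 7231 rose and 2137 fell. The promoters were chosen differently: nearest the table's gene start for members, and at the lowest coordinate for other genes. Within the ZNF100 and ZNF700 clusters 24 of 26 tested members had the letters, and of these 24, 12 rose and 1 fell. That left 2 members without the letters, too few to compare. Outside them, 9 of 48 members with CCAAT rose and 10 fell, and 8 of 69 without it rose and 27 fell. For CTTCCGG, 9 of 42 tested members with it rose (21.4%) and 13 fell (31.0%). Without it, 20 of 101 rose (19.8%) and 25 fell (24.8%). Over all tested genes with a promoter, 36.1% of those with CTTCCGG rose and 24.5% fell. The shares without it were 28.5% and 29.5%. These are counts without a test, on letters chosen with the results in view. Of the other words searched on both strands, GGGCGG was in 65.3% of the members' promoters (42.6% of all), TATAAA in 2.31% (10.7%), CACGTG in 3.70% (6.34%), GGCGGGAA, which can overlap the first, in 4.17% (2.72%), and AATTCCC in 6.48% (3.15%).

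**Figure D4:**
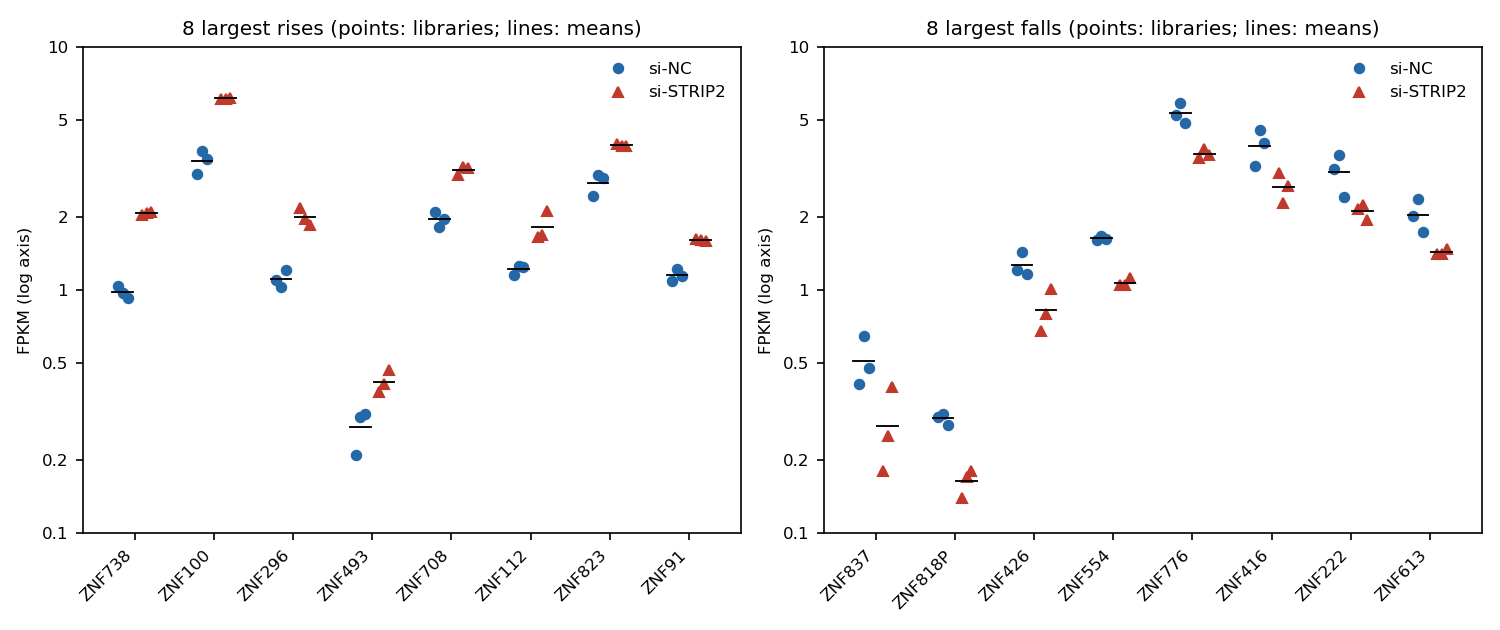
FPKM on a log axis in each library (circles si-NC, triangles si-STRIP2, lines the group means) for the 8 largest rises, left, and the 8 largest falls, right, among called members whose groups do not overlap. ZNF738 moves from 0.93 to 1.04 FPKM up to 2.04 to 2.09 FPKM, and the falls of ZNF837 and ZNF818P rest on levels below 0.7 FPKM.

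Outside the clusters, ZNF554 at the tip of the short arm fell from 1.60, 1.67 and 1.63 FPKM to 1.05, 1.05 and 1.12 FPKM. The libraries within each group were tight, and the difference was 1.52-fold (edgeR adjusted p = 2.79e-05). ZNF473, which acts in the 3′ end processing of histone mRNA, rose slightly from 3.61, 3.86 and 3.46 FPKM to 4.16, 4.36 and 4.38 FPKM (log2 0.24 ± 0.0667, SE; adjusted p = 0.00327), and VRK3 overlaps it on the other strand with 95% of its counts. In all, 48 tested members overlap other genes that hold at least 10% of their counts. Among the 118 tested members left when these are set aside, 59 were called, beside 54.8% of all tested genes.

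Rises and falls occurred both with and without the KRAB annotation. Of the 263 members, 243 carry, in the deposited annotation, the orthology term for KRAB zinc finger proteins, a loose label that ZNF146 also has. Of the 148 tested with the term 29 rose (19.6%, beside 27.8% of all tested genes) and 41 fell (27.7%, near 27.0%). Their median log2 fold change was -0.03. Of the 18 tested without it 3 rose (16.7%) and 2 fell (11.1%), with a median of -0.01. Lack of the term does not show that a protein has no KRAB domain. Among the 18 is ZNF274, described above as bringing SETDB1 to other ZNF genes. ZNF382, a KRAB repressor reported as a silenced tumour suppressor, had no count in any library.

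Most genes of a broad list of co-repressor and heterochromatin factors were higher in si-STRIP2. The list is wider than the KRAB pathway: it also holds CTCF, KDM4A, KDM4B and KDM4C, and these KDM4 genes are among the rises. Its 34 genes, listed with earlier results of these data known, were all tested. Of them 23 rose (67.6%, beside 27.8% of all tested genes) and 2 fell (5.88%, beside 27.0%), and the median log2 fold change was 0.19. Called changes of at least 1.5-fold were found in 2 of the 34, beside 14.5% of all tested genes. The median level of the list was 11.2 FPKM, against 3.68 FPKM over all tested genes. The part of this difference in level in the share of calls was not tested. TRIM28, the co-repressor bound by the KRAB domain, was at 72.1, 72.4 and 74.9 FPKM in si-NC and at 104, 107 and 101 FPKM in si-STRIP2, 1.42-fold higher (edgeR adjusted p = 1.28e-12). SETDB1, the methyltransferase it recruits, went from 5.29, 5.55 and 5.67 FPKM to 7.89, 7.86 and 7.87 FPKM, 1.43-fold higher (adjusted p = 1.4e-10). Both sets of si-STRIP2 libraries lay clear of the controls. TRIM28 itself lies on chromosome 19 (58544064 to 58550722), just beyond the ZNF776 cluster.

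The smallest adjusted p-values of the list belonged to other chromatin factors. EHMT2, a histone H3 lysine 9 methyltransferase, went from 5.33, 5.21 and 5.51 FPKM to 10.2, 10.1 and 10.1 FPKM (log2 0.92 ± 0.0489, SE; edgeR adjusted p = 3.8e-17). HELLS, a remodeller needed for DNA methylation, rose 1.61-fold (adjusted p = 2.66e-14), and DNMT1, the maintenance DNA methyltransferase, rose 1.48-fold (adjusted p = 4.9e-14). The falls were CTCF at -0.13 and SMARCAD1 at -0.12, and ATF7IP, TASOR, HDAC2, CBX5, DNMT3A and DNMT3B were among the 9 not called. Against a 1.2-fold change 13 of the 34 were called in place of 25. The part of these genes in the members' changes was not tested.

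**Figure D5:**
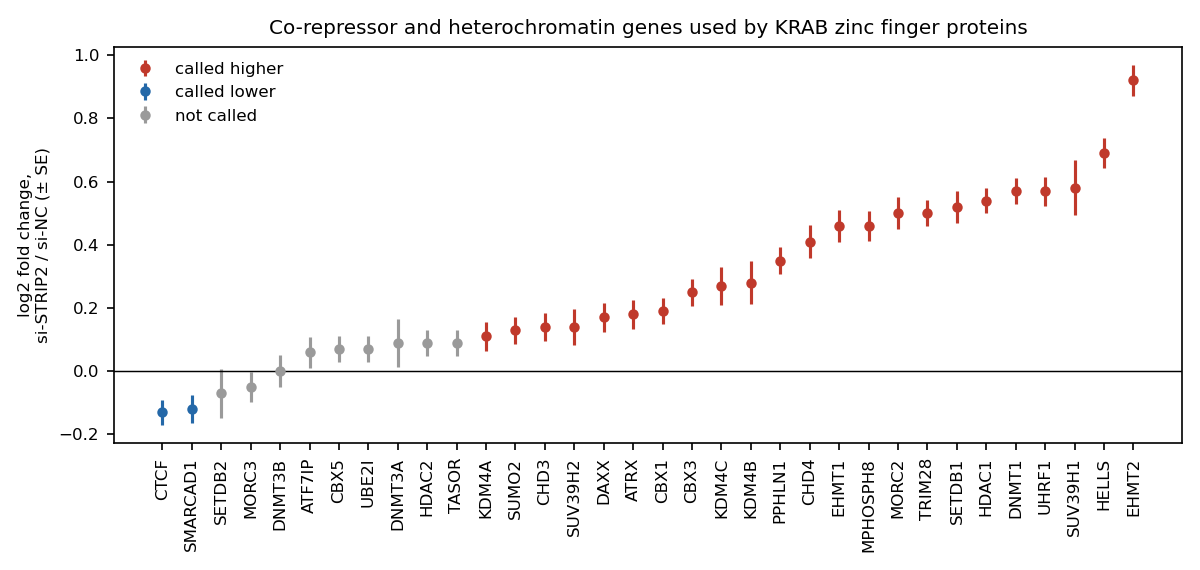
Log2 fold change (si-STRIP2 over si-NC, bars 1 SE) of the 34 listed co-repressor and heterochromatin genes, in order of size, coloured by call. Not all of them belong to the KRAB pathway. Of these 23 are called higher, up to EHMT2 at 0.92, and CTCF and SMARCAD1 are called lower.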

How the data were processed

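RNA-seq of 6 HCT116 libraries, 3 per group, was analysed from the table that the authors deposited. Per the labels' protocols, poly(A) RNA was selected and a directional kit was used; the submitters' processing notes name cutadapt 1.9.1, HISAT2 2.2.1, HTSeq 0.6.1 and GRCh38.p13. Whether counting used strand is not given in the sources used here. Raw counts and FPKM values, per the file headers, are given for each gene in each library. The deposited counts were whole numbers, and the deposited FPKM values differed by at most 0.005 from those recomputed from count, exonic size and column total. Coordinates are the table's, on GRCh38.

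In R 4.3.3 with edgeR 4.0.16, genes were kept by filterByExpr (minimum count 10), scaled by TMM and tested with the 2-sided quasi-likelihood F test on all 15687 genes kept, with Benjamini-Hochberg adjustment over them. A gene was called at an adjusted p under 0.05. The SE of a log2 fold change is its size divided by the square root of F. FPKM values describe levels and were not tested in the main analysis. The script was tested on simulated data. Alternatives were RLE scaling, DESeq2 1.42.0, no filter on low counts, a filter of 1 FPKM in 3 libraries, limma 3.58.1 on log2(FPKM + 1) and log2(FPKM + 0.1), a replicate block, a test against a 1.2-fold change, leaving out each library, leaving out members with overlapping genes, and cluster gaps of 500 kb and 2 Mb.

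Transcript words of 50 bases shared between genes were counted in GENCODE 29. Promoters were those of RefSeq on GRCh38.p14. A planned count of KRAB boxes and fingers from protein sequences was not made, and the KEGG orthology term of the deposited table was used in its place.

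The members, the clusters, the list of 34 co-repressor genes and the words searched were chosen with earlier results of these data known. Genes named in full are, among called members with separate groups, the 8 that rose and the 8 that fell most, the 5 highest levels, 12 members with a role in the literature, the member with the smallest adjusted p in each cluster, 5 co-repressor genes and STRIP2. Others were named after their values were seen. Depth, 17184963 to 21721218 counts per library, limits the precision of the members, whose median total was 1170 counts over the 6 libraries.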

Additional observations from a re-analysis of the deposited data

How the results depend on the processing

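Of the members called in the main analysis, none was called in the opposite direction under any alternative, and the number called lay between 54 (DESeq2) and 78 (RLE scaling) except in the test against a 1.2-fold change, which called 24 (10 higher, 14 lower). DESeq2 called 21 members higher. With limma on log2(FPKM + 1), 2 members passed 1.5-fold. As a share of genes with an adjusted p, DESeq2 called 32.1% of 168 members and 39.8% of 16902 genes, and edgeR without a filter called 34.6% of 205 members and 25.5% of 32799 genes. The median of members was -0.08 with the filter of 1 FPKM. Against a 1.2-fold change 13 of the co-repressor genes and 19 of the other genes inside clusters were called. The same test left, as higher and lower calls, 0 and 2 in the ZNF558 cluster, 2 and 0 in the ZNF700 cluster, 0 and 3 in the ZNF468 cluster and 0 and 3 in the ZNF776 cluster; it left 0 higher in the ZNF181 and ZNF146 clusters and 2 lower in the ZNF180 cluster. DESeq2 gave 0 higher in the ZNF181 cluster, 1 in the ZNF146 cluster, 1 in the ZNF468 cluster (7 lower) and 2 in the ZNF776 cluster. Under limma the ZNF181 cluster had 2 higher with either pseudocount, the ZNF468 cluster had 1 higher with either, and the ZNF100 cluster had 1 lower with a pseudocount of 0.1. With the filter of 1 FPKM the ZNF146 cluster had 1 higher. A gap of 2 Mb joins neighbours: the ZNF558 and ZNF700 clusters then had 5 higher and 8 lower, and the one holding ZNF181 had 3 higher and 4 lower. The ZNF468 and ZNF776 clusters, joined with ZNF473 and other members outside them, had 10 higher and 24 lower. Apart from the smaller number of genes tested and the joining of clusters, the cause was not tested.

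Leaving out 1 library at a time gave 65 to 77 members called (25 to 35 higher, 39 to 43 lower), 7 to 12 past 1.5-fold, a median of -0.04 to -0.02, 21 to 25 co-repressor genes and 32 to 38 other genes inside clusters. For higher calls the ranges were 4 to 5 (ZNF700), 8 to 9 (ZNF100), 1 to 2 (ZNF181), 1 to 3 (ZNF146), 2 to 4 (ZNF180), 1 to 3 (ZNF468) and 2 to 6 (ZNF776), with 1 throughout for ZNF558. For lower calls they were 6 to 8 (ZNF558), 1 to 2 (ZNF700), 2 to 3 (ZNF146), 5 to 6 (ZNF180), 7 to 11 (ZNF468) and 11 to 15 (ZNF776), with 1 throughout for ZNF181 and 0 for ZNF100. ZNF428, not called, turned to 0.07 without si-NC replicate 2. With the replicate block 74 members were called (32 higher, 42 lower) and 8293 genes in all, against 8599. Libraries of the same number did not deviate together (r = -0.086, -0.013 and -0.072), so the numbers were not taken as a pairing. At these depths, members under about 1 FPKM rest on few counts, and changes in them may not be detectable.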
